A study of Mus musculus with 6 samples.

Results

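Transcripts of the proteasome were compared between kidneys of mice given a Wnt1 plasmid and kidneys of mice given an empty plasmid. The genes were those whose symbol in the table of all genes begins with Psm, then a letter from a to g and a digit, and 51 of 22183 genes met this rule. Of these, 49 encode subunits, activators, an inhibitor or assembly factors of the proteasome. The other two, Psmc3ip and Psme3ip1, match by symbol only: they encode proteins that interact with a subunit and with an activator. A filter on low counts kept 48 of the 51 genes for testing. Psma8, Psmb11 and Psme2b did not pass it.

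The data came from 6 RNA-seq libraries of kidney messenger RNA, 3 labelled as treated with the empty vector pcDNA3 (control) and 3 labelled as Wnt1 overexpression by plasmid. Wnt1 is a secreted signalling protein that acts through beta-catenin, and the series title concerns how acute kidney injury turns chronic. All libraries share the tissue and the single batch that the labels name. Strain, age, sex, time after delivery, any injury, and the promoter or route of the plasmid are not given in the labels. Libraries are called replicates 1, 2 and 3 by the order of their records, and these numbers pair nothing. Since the labels do not say that the libraries came from separate animals, each p-value reflects no more than the spread of these libraries, which could be technical.

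The proteasome is a barrel of stacked rings that degrades proteins tagged with ubiquitin. Its core particle has outer rings of alpha subunits and inner rings of beta subunits, of which Psmb5, Psmb6 and Psmb7 carry the proteolytic sites. In cells exposed to interferon-gamma, and constitutively in many leukocytes, Psmb8, Psmb9 and Psmb10 are built into new particles in place of Psmb5, Psmb6 and Psmb7, which gives the immunoproteasome. Regulatory particles open the barrel at its ends. They include the cap that recognises and unfolds ubiquitin-tagged proteins (Psmc and Psmd genes) and the PA28 activator made of Psme1 and Psme2, which like the immunoproteasome is linked to the supply of peptides for class I antigen presentation.

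Transcripts of the inducible set were higher with Wnt1, and those of the standard particle were not called higher under the same scaling. Psmb8, Psmb10, Psmb9, Psme2 and Psme1 rose, Psmd3 and Psmg1 fell, and 41 tested genes were not called. A call was an adjusted p under 0.05 in edgeR's quasi-likelihood test with TMM scaling factors, which set libraries to a common scale on the assumption that most genes do not change. Thus 5 of 48 were higher, against 22.4% of the 14432 genes tested, and 2 of 48 were lower, against 18.7%. The median log2 fold change, Wnt1 over control, was -0.05 for the 48 genes and 0.052 for all genes tested. Levels of the groups did not overlap for 10 proteasome genes that were higher in all Wnt1 libraries, against 28.2% of all genes tested. The same held for 4 that were lower in all of them, against 25.3%. The higher ones were the 5 called genes and Psma1, Psma3, Psma5, Psmd10 and Psmg4, and the lower ones were Psmd3, Psmg1, Psmc1 and Psmc2.

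Total counts were 24753191 to 26072455 in control and 23585040 to 27218091 in Wnt1 libraries, with TMM factors of 0.848 to 0.879 and 1.12 to 1.19. The first principal component, 78% of the variance, parted the groups, and the second, 14.7%, set replicate 3 of each group apart from the other 4 libraries. Proximal tubule transporters and enzymes, which define the main epithelium of the kidney, were abundant in every library, with 12 markers summing to 21200 to 23000 CPM (counts after TMM scaling to a common library size) in control and 5470 to 6960 in Wnt1 libraries. Wnt1 itself had counts of 0 in the 3 control libraries and of 0, 1 and 0 in the Wnt1 libraries, so this transcript does not check the labels.

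**Figure D1:**
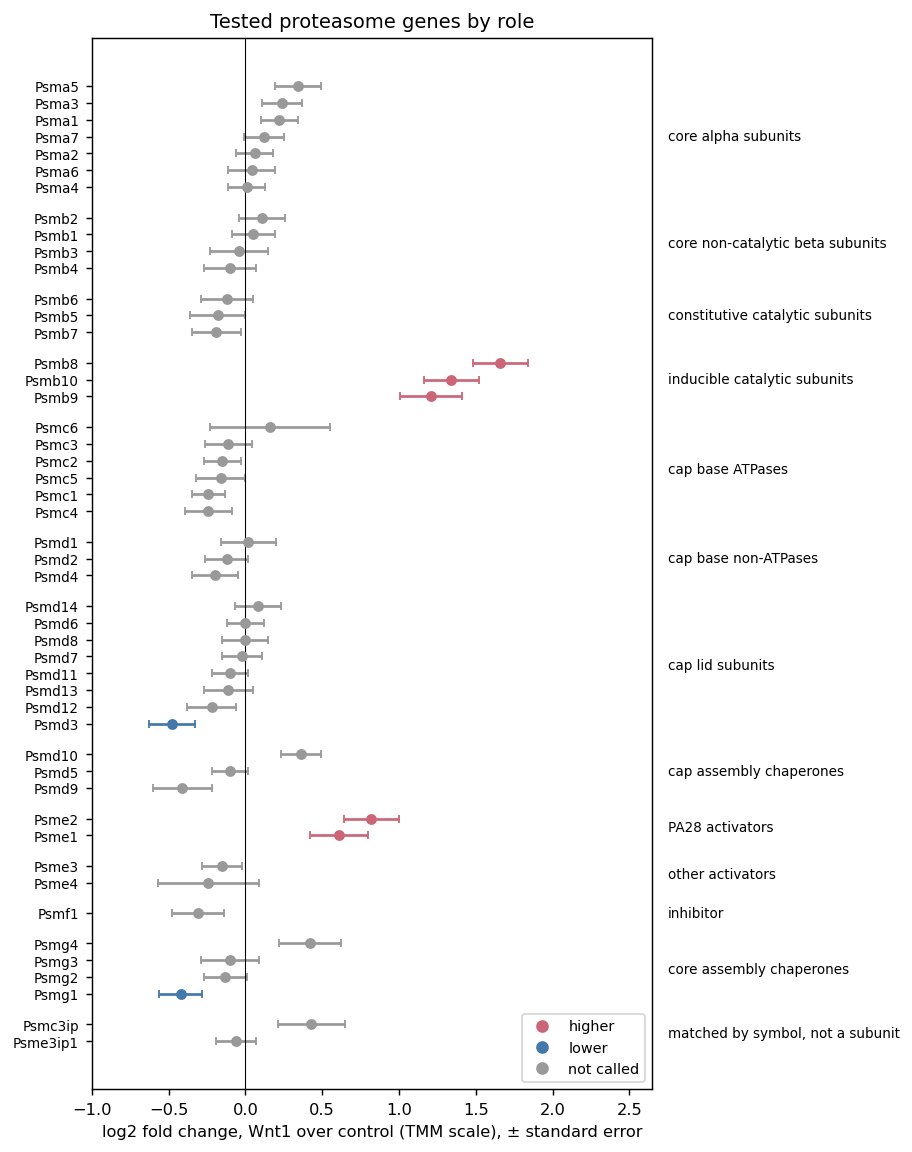
Log2 fold change of each of the 48 tested genes, Wnt1 over control on the TMM scale, with its standard error and grouped by role. The inducible catalytic subunits lie between 1.21 and 1.66 and the tested PA28 subunits at 0.61 and 0.82, while the constitutive catalytic subunits lie between -0.19 and -0.12.

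All 3 inducible catalytic subunits rose with Wnt1. Psmb8, which takes the place of the chymotrypsin-like subunit Psmb5, stood at 13.2, 14.6 and 18.9 CPM in control replicates 1 to 3 and at 45.1, 45.1 and 57.2 CPM in the Wnt1 replicates. The groups did not overlap, and replicate 3 was the highest in each. Its mean went from 15.6 ± 2.98 to 49.2 ± 6.98 CPM (SD, n = 3), and the log2 fold change was 1.66 ± 0.18 (standard error), with an adjusted p of 0.000328 in edgeR. Psmb10, the inducible counterpart of the trypsin-like subunit Psmb7, read 14.5, 14.2 and 16.9 CPM in control and 32.7, 35.5 and 47.2 CPM in Wnt1 libraries. Every Wnt1 value was above every control value, and the log2 fold change was 1.34 ± 0.18 (edgeR adjusted p 0.000737). Psmb9, the inducible counterpart of the caspase-like subunit Psmb6, was the scarcest of the 3, at 5.98, 5.76 and 6.98 CPM in control and 13.4, 12.1 and 17.8 CPM with Wnt1. Here too the groups did not overlap, and the log2 fold change was 1.21 ± 0.20 (edgeR adjusted p 0.00199).

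Their constitutive counterparts were not called. Psmb5 read 115, 116 and 145 CPM in control and 105, 91.7 and 135 CPM with Wnt1, which gave -0.18 ± 0.18 on the log2 scale (edgeR adjusted p 0.467). Psmb6 read 96.5, 100 and 116 CPM in control and 89.6, 79.6 and 119 CPM with Wnt1, a difference of -0.12 ± 0.17 (edgeR adjusted p 0.625). For Psmb7 the control libraries gave 102, 107 and 118 CPM and the Wnt1 libraries 95.6, 79.1 and 112 CPM, a difference of -0.19 ± 0.16 (edgeR adjusted p 0.362). Groups overlapped for each of these genes, and their values were highest in replicate 3 of both groups. The sign of these differences turned to 0.23 to 0.30 when libraries were scaled by their totals alone, again without a call.

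**Figure D2:**
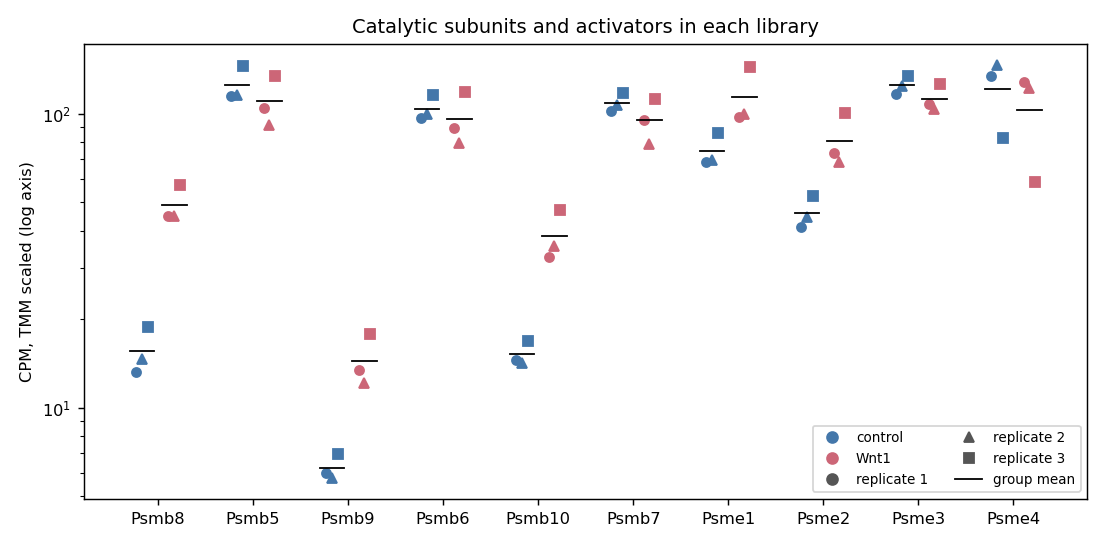
Level of catalytic subunits and activators in each library, in CPM with TMM scaling on a log axis, with a line at each group mean (n = 3). Wnt1 values lie above all control values for Psmb8, Psmb9, Psmb10, Psme1 and Psme2 and overlap them for Psmb5, Psmb6, Psmb7, Psme3 and Psme4.

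A ratio of an inducible to a constitutive subunit within a library does not depend on how libraries are scaled against each other. The log2 count ratio of Psmb8 to Psmb5 was -3.11, -2.99 and -2.93 in control and -1.22, -1.02 and -1.24 in Wnt1 libraries, a difference of 1.85, or 3.6-fold. That of Psmb9 to Psmb6 was -4.00, -4.11 and -4.05 in control and -2.74, -2.71 and -2.74 with Wnt1, a difference of 1.32, or 2.5-fold. For Psmb10 to Psmb7 it was -2.81, -2.91 and -2.80 in control and -1.55, -1.15 and -1.24 with Wnt1, a difference of 1.53, or 2.88-fold. All 3 ratios separated the groups with no overlap. The exact two-sided permutation test over libraries gave p = 0.1 for each ratio, the smallest that its 20 splits allow, and 0.1 after adjustment over the 3 pairs, so this design cannot reach 0.05. Leaving out any single library moved the differences only to between 1.78 and 1.89 for Psmb8, 1.29 and 1.35 for Psmb9, and 1.45 and 1.64 for Psmb10.

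Compared per transcript length, in FPKM, the constitutive subunits still outweighed the inducible ones in every library. Psmb8 made up 9.38%, 10.0% and 10.7% of the Psmb8 and Psmb5 sum in control and 27.4%, 30.3% and 27.2% with Wnt1, a mean of 10.1% ± 0.674 against 28.3% ± 1.75 (SD, n = 3). Psmb10 made up 11.0% ± 0.382 of its pair with Psmb7 in control and 26.3% ± 2.72 with Wnt1. The share of Psmb9 in its pair with Psmb6 was the smallest, 3.48% ± 0.174 in control and 8.27% ± 0.155 with Wnt1. Summed FPKM of the 3 inducible subunits was 25.3, 25.6 and 32.0 in control and 91.7, 96.4 and 118 with Wnt1. For the 3 constitutive subunits the sums were 295, 300 and 347 in control and 362, 322 and 443 with Wnt1, so the FPKM scale, which has no factor for composition, placed 2 of the 3 Wnt1 libraries above all control libraries.

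**Figure D3:**
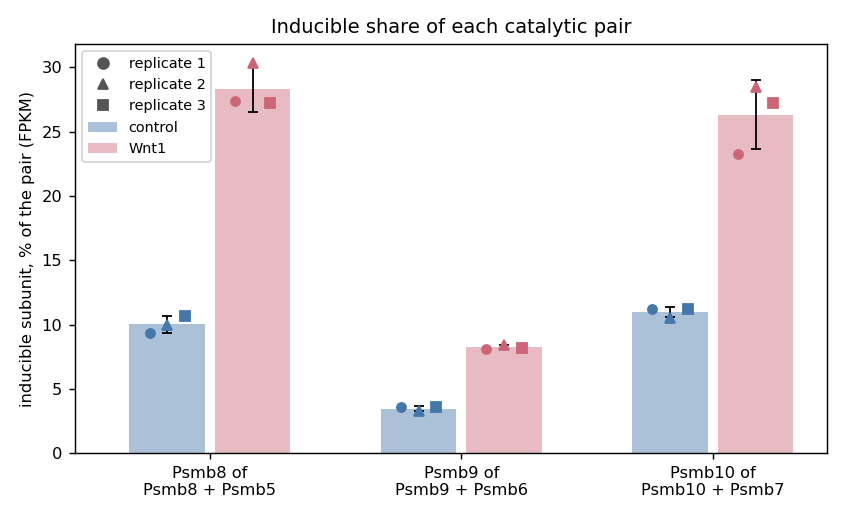
Share of the inducible subunit in each catalytic pair, in percent of the pair's summed FPKM, with bars at the group mean, error bars of 1 SD and a point for each library (n = 3). Wnt1 libraries lie between 8.15% and 8.44% for Psmb9 and between 23.3% and 30.3% for Psmb8 and Psmb10, above all control libraries of the same pair.

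The inducible genes have neighbours in antigen presentation. In GENCODE M21 (GRCm38), Psmb9 lies at chr17:34181987-34187764 on the minus strand and Psmb8 at chr17:34197721-34201454 on the plus strand. Tap1, a subunit of the transporter that carries peptides into the endoplasmic reticulum, lies between them at chr17:34187553-34197225 and overlaps Psmb9 by 212 bases on the opposite strand. Its partner Tap2 follows at chr17:34203527-34216321. Psmb10 lies apart, at chr8:105935735-105938444 on the minus strand. Psmb8 and Psmb10 each overlap an annotated antisense gene, by 2139 and 2710 bases, and the second overlap covers the whole of Psmb10. Neither antisense gene has counts of its own in these data. Strand use in counting is not stated, so reads of these overlaps cannot be assigned to one strand. The constitutive genes are elsewhere: Psmb5 at chr14:54614119-54618022, Psmb6 at chr11:70525367-70527858 and Psmb7 at chr2:38588036-38644087.

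Promoter sequences from RefSeq (GRCm38.p6, 250 bases before to 50 after a start) matched 43 of the 51 genes with 47 promoters. They were searched on both strands for GAAANNGAA, the core of an interferon response element bound by IRF factors, for TGACNNNGC, the antioxidant response type element bound by Nfe2l1 and Nfe2l2, and for CCAAT. The promoter stretches below belong to genes on each side of the catalytic exchange and to the activator Psme1, and capitals mark the match. The RefSeq starts of Psmb9, Psme1 and Psmb5 lie inside their GENCODE genes, so the Psmb5 stretch includes part of its own annotated gene. For Psmb9 and Psme1, 30 bases around the match are given, and for Psmb5 and Psmb6 the 220 bases before the start.
Psmb9, minus strand, chr17:34187321-34187350: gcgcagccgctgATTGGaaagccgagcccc
Psme1, plus strand, chr14:55578494-55578523: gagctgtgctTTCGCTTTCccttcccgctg
Psmb5, minus strand, chr14:54617996-54618215: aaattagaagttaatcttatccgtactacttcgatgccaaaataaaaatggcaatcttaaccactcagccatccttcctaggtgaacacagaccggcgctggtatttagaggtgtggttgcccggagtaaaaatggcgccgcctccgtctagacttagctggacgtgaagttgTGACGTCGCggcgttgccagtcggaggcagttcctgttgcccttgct
Psmb6, plus strand, chr11:70525137-70525356: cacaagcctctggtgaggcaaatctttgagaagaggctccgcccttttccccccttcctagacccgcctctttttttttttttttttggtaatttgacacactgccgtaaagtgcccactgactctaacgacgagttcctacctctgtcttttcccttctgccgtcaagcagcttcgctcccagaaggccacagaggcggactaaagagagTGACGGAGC

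Psme1 held the interferon response core on the minus strand from base 11, counted from the RefSeq start. Psmb5 and Psmb6 held the antioxidant response type letters from bases -47 and -9, and Psmb9 held CCAAT on the minus strand from base -8. The Psmb8 and Psmb10 windows held none of these 3 motifs. Over all member promoters, 14.9% held GAAANNGAA, against 8.56% of the 32851 promoters in the table. For TGACNNNGC the shares were 12.8% and 12.4%, and for CCAAT 34.0% and 37.4%. The 7 genes with GAAANNGAA were Psmb3, Psmb4, Psmc2, Psmd4, Psmd9, Psme1 and Psmg4, of which Psme1 alone was called higher. These matches are letters in a window and show no binding.

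Both tested subunits of the PA28 activator rose. Psme2, its beta subunit, read 41.1, 44.6 and 52.4 CPM in control and 73.6, 68.7 and 101 CPM with Wnt1. The groups did not overlap, and the log2 fold change was 0.82 ± 0.18 (edgeR adjusted p 0.00854). Psme1, its alpha subunit, read 68.6, 69.7 and 85.9 CPM in control and 97.4, 100 and 144 CPM with Wnt1. Again the lowest Wnt1 value was above the highest control value, and the log2 difference was 0.61 ± 0.19 (edgeR adjusted p 0.0320). The Psme1 call was lost without control replicate 1 (adjusted p 0.0625) or control replicate 2 (0.0658). Both genes lie on chromosome 14, Psme1 at chr14:55578123-55581529 and Psme2 at chr14:55587441-55591113, and Irf9, which encodes an interferon regulatory factor, lies close by at chr14:55603571-55610030. Psme2b, a near-identical copy of Psme2 that overlaps another gene on its strand, had counts of 7.08, 2.85 and 0 in control and 17.33, 31.64 and 1.54 with Wnt1 and was not tested. Reads of Psme2 and Psme2b may be split between them, and 5 libraries gave Psme2 a count that was not whole. Of the catalytic subunits, Psmb7 had such counts in 6 libraries and Psmb9 in 4.

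Other regulators of the core were not called. Psme3, the nuclear PA28 subunit, read 117, 124 and 135 CPM in control and 108, 104 and 126 CPM with Wnt1, a log2 fold change of -0.15 ± 0.13. Psme4, the PA200 activator linked to histone degradation, read 135, 147 and 82.8 CPM in control and 128, 122 and 58.8 CPM with Wnt1, and replicate 3 of each group was far below the other two. Its log2 fold change was -0.24 ± 0.33. Among the 17 alternatives listed below, Psme4 was called in 1, at -0.28 (edgeR adjusted p 0.0202). That fit had a covariate for replicate 3 of both groups and was chosen after seeing the data. Psmf1, the PI31 regulator that inhibits the core in vitro, read 41.8, 44.0 and 44.5 CPM in control and 31.4, 30.2 and 43.4 CPM with Wnt1. Its log2 fold change of -0.31 ± 0.17 was not called (edgeR adjusted p 0.170). Psmf1 was called lower under 4 of the 17 alternatives, among them without Wnt1 replicate 3, at -0.50 with an edgeR adjusted p of 0.00445.

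The structural core was abundant and even. In FPKM, the 14 constitutive core subunits ranged from 35.0 (Psma5) to 143 (Psmb3) with a median of 76.0 in control, and from 50.3 (Psma2) to 185 (Psmb3) with a median of 104 in Wnt1 libraries. On the TMM scale none of the 14 was called, against 22.4% of all genes tested called higher and 18.7% lower. Their log2 fold changes ran from -0.19 to 0.34. The 7 alpha subunits, which form the gated outer rings, had a median of 0.12 and included Psma5, at 49.0, 47.0 and 54.9 CPM in control and 58.4, 57.1 and 75.5 CPM with Wnt1. The Psma5 groups did not overlap, but the difference of 0.34 ± 0.15 was not called (edgeR adjusted p 0.111). Psma5 was called higher under 9 of the 17 alternatives, among them without control replicate 3 (0.49, edgeR adjusted p 0.0399). Psma3 at 0.24 and Psma1 at 0.22 followed, and Psma7, Psma2, Psma6 and Psma4 lay between 0.01 and 0.12. Among the 4 beta subunits without a proteolytic site, Psmb2 read 57.2, 59.4 and 69.1 CPM in control and 62.4, 60.5 and 77.9 CPM with Wnt1, a log2 fold change of 0.11 ± 0.15 between overlapping groups. Psmb1, Psmb3 and Psmb4 lay at 0.05, -0.04 and -0.10. The tissue-specific core subunits, Psma8 of the testis and Psmb11 of the thymus cortex, were near 0: counts per library ran from 3 to 11 for Psma8 and from 0 to 1 for Psmb11.

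Of the 17 Psmc and Psmd genes that encode subunits of the cap, 0 were called higher and 1 was lower. The shares of all genes tested were 22.4% and 18.7%. Their FPKM levels ranged from 22.5 (Psmc6) to 125 (Psmc3) in control and from 32.2 (Psmd14) to 152 (Psmc3) in Wnt1 libraries. The 6 ATPases that unfold substrates had log2 fold changes from -0.24 to 0.16. Psmc1, the one with the smallest p, read 123, 119 and 132 CPM in control and 108, 105 and 105 CPM with Wnt1. Its groups did not overlap, but the difference of -0.24 ± 0.11 was not called (edgeR adjusted p 0.126). Psmc6 had the widest error of them, 0.16 ± 0.39, with 62.8, 69.5 and 38.7 CPM in control and 84.5, 76.9 and 29.3 CPM with Wnt1: replicate 3 was the lowest in both groups. Of the non-ATPase base subunits, the ubiquitin receptor Psmd4 read 93.9, 94.2 and 111 CPM in control and 78.5, 81.6 and 101 CPM with Wnt1, a difference of -0.20 ± 0.15 between overlapping groups. Psmd4 was called lower under 3 of the 17 alternatives, among them without Wnt1 replicate 3, at -0.32 (edgeR adjusted p 0.0444). The scaffolds Psmd1 and Psmd2 lay at 0.02 and -0.12.

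In the lid, which removes ubiquitin chains, Psmd3 fell. This scaffold subunit read 213, 210 and 215 CPM in control and 142, 133 and 183 CPM with Wnt1. The groups did not overlap, and Wnt1 replicate 3 was the closest to control. The log2 fold change was -0.48 ± 0.15 (edgeR adjusted p 0.0317). The call held without Wnt1 replicate 3 (-0.63, adjusted p 0.00126) and was lost without any other single library (adjusted p 0.0679 to 0.106). With library totals the difference was -0.06. The other 7 lid subunits, among them the deubiquitinase Psmd14 at 0.08 ± 0.15, lay between -0.22 (Psmd12) and 0.08.

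Of the 7 assembly factors, Psmg1 alone was called on the TMM scale, as lower, against 18.7% of all genes tested. With library totals it was not called, and Psmd5, Psmd10 and Psmg4 were higher, against 44% of all genes tested. Psmg1, which pairs with Psmg2 to build the alpha ring, read 23.6, 24.8 and 26.3 CPM in control and 18.0, 17.2 and 20.7 CPM with Wnt1. Its groups did not overlap, and its log2 fold change was -0.42 ± 0.14 (edgeR adjusted p 0.0412). As for Psmd3, this call held without Wnt1 replicate 3 (-0.50, adjusted p 0.00783) and was lost without any other single library (adjusted p 0.0909 to 0.151). Psmg2, Psmg3 and Psmg4 were not called, at -0.13, -0.10 and 0.42. Psmd10 (gankyrin), a chaperone of the cap base, read 15.8, 16.0 and 18.2 CPM in control and 21.4, 21.1 and 21.8 CPM with Wnt1. All Wnt1 values were above control, but the log2 fold change of 0.36 ± 0.13 missed the threshold (edgeR adjusted p 0.0624). Psmd10 was called higher under 10 of the 17 alternatives. Among these were the fits without control replicate 3 (0.52, adjusted p 0.0329) and without Wnt1 replicate 3 (0.34, adjusted p 0.0417). The base chaperones Psmd5 and Psmd9 lay at -0.10 and -0.41, and Psmd9 overlaps Hpd by 10921 bases on the opposite strand. Of the genes matched by symbol only, Psmc3ip, a factor of meiotic recombination, read 3.49, 3.01 and 2.74 CPM in control and 3.42, 4.53 and 4.51 CPM with Wnt1, a difference of 0.43 ± 0.22. Psme3ip1 lay at -0.06.

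The counts of calls depended on scaling and on 2 libraries. With library totals in place of TMM factors, 24 of 48 proteasome genes were higher, against 44% of all genes tested, and 0 were lower, against 8.92%. The median log2 fold change was then 0.37 for the 48 genes and 0.473 for all genes, so the shift was that of the whole table. The 24 included all 7 alpha subunits but none of the constitutive catalytic subunits and none of the ATPases. Psmb8, Psmb10, Psmb9, Psme2 and Psme1 were called under both scalings, with log2 fold changes of 2.08, 1.76, 1.62, 1.23 and 1.03 under library totals. Without control replicate 3 and Wnt1 replicate 3, 9 of 49 proteasome genes were higher, against 32% of all genes tested, and 7 were lower, against 30.4%. The 9 were the same 5 genes with Psma5, Psmc6, Psmd10 and Psme2b, and the 7 were Psmd3, Psmg1, Psmc2, Psmc4, Psmd4, Psmd9 and Psmf1.

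**Figure D4:**
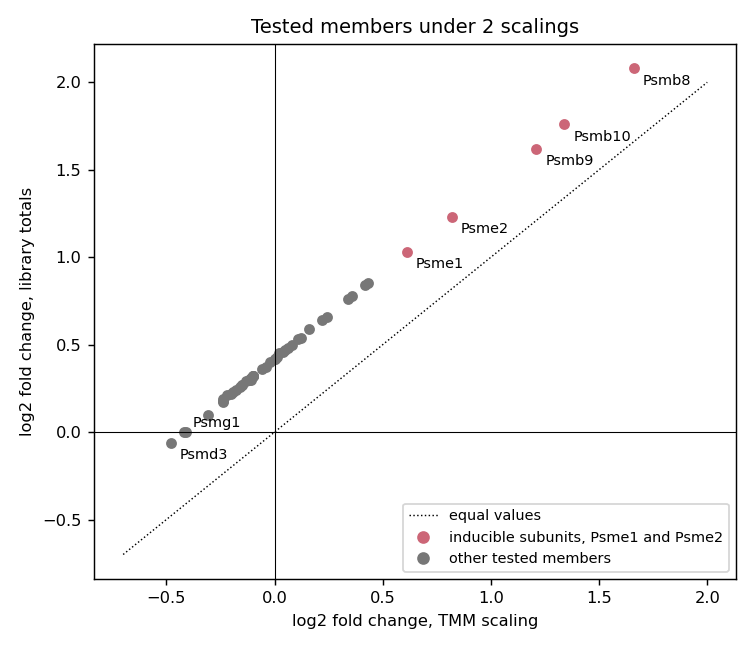
Log2 fold change of each of the 48 tested genes under TMM scaling (x axis) and under library totals (y axis), with a dotted line at equal values. All points lie above the line, and Psmb8, Psmb10, Psmb9, Psme2 and Psme1 lie at the upper end on both axes.

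Across proteasome genes, both libraries numbered 3 departed from their own group in a like way. The log2 CPM of replicate 3 minus the mean of replicates 1 and 2 was lowest for Psmc6 (-0.77 in control and -1.46 with Wnt1) and Psme4 (-0.77 and -1.09). It was among the highest for Psmb3 (0.32 and 0.55) and Psme1 (0.31 and 0.55). Over the 48 genes the departure in control and that in Wnt1 had a Pearson r of 0.89 and a Spearman rho of 0.75, and 0.74 and 0.72 over the 46 genes without Psmc6 and Psme4. Genes with a higher GC content in their longest coding transcript had higher values in these libraries, with r = 0.65 in control and 0.71 in Wnt1 over the same 48 genes. These are descriptions across genes of the same libraries, which are not independent, and the part of GC content or RNA quality in the calls was not tested. The inducible subunits are among the GC-rich members, between 55.3% and 56.5%. Without both libraries Psmb8, Psmb10 and Psmb9 had log2 fold changes of 1.69, 1.25 and 1.11.

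**Figure D5:**
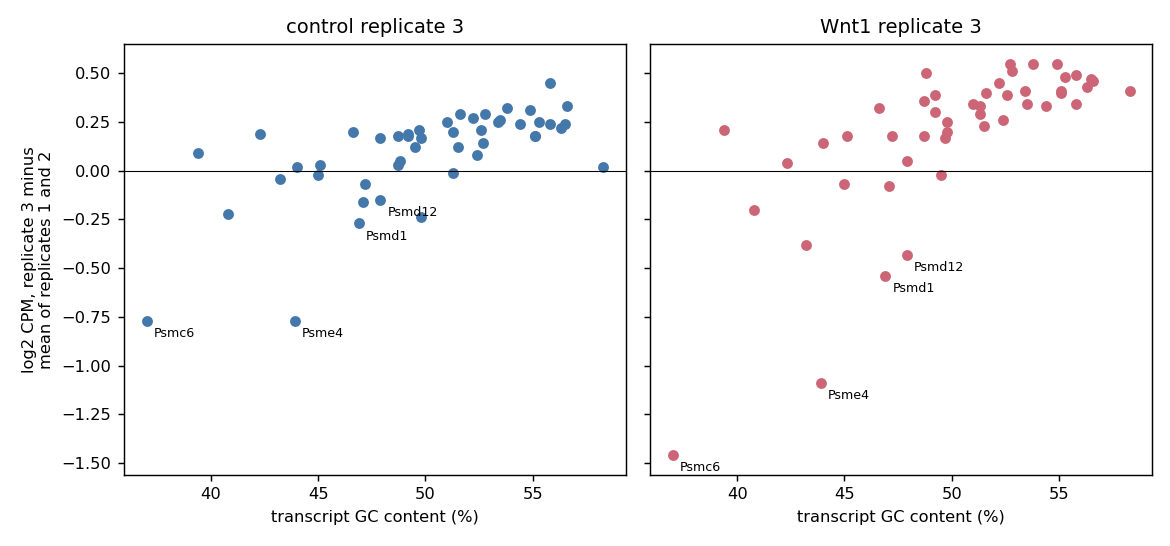
Log2 CPM of replicate 3 minus the mean of replicates 1 and 2 of the same group (y axis) against transcript GC content in percent (x axis) for the 48 tested genes, control on the left and Wnt1 on the right. Psmc6 and Psme4 lie lowest in both panels, at -0.77 and -0.77 in control and -1.46 and -1.09 in Wnt1.

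Genes that work with the proteasome mostly gave small differences. Of 16 tested partners, such as shuttle factors and deubiquitinases, 0 were called higher and 3 were lower, against 22.4% and 18.7% of all genes tested. Among them were Adrm1, a ubiquitin receptor of the cap (-0.53 ± 0.15), and the shuttle factor Ubqln1 (-0.37 ± 0.13), with edgeR adjusted p-values of 0.0249 and 0.0497. Pomp, which matures the core, lay at 0.15 ± 0.13. Among 6 ubiquitin and E1 genes, the fusion gene Rps27a rose by 0.62 ± 0.13 on the log2 scale (edgeR adjusted p 0.00691), and 1 of the 6 was lower. None of the 5 regulators of constitutive subunits was called, and Nfe2l1, which drives their transcription when proteasome activity is short, lay at -0.28 ± 0.14. With library totals 0 of the 16 partners were lower, against 8.92% of all genes tested, and 7 were higher, against 44%.

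Genes of the interferon-gamma route and of class I peptide loading were higher beside the inducible subunits. Of 9 tested genes of the route, 7 rose and 0 fell, against 22.4% and 18.7% of all genes tested, with a median of 1.07. Among them Ifngr1 and Ifngr2, the receptor chains, rose by 1.38 ± 0.13 and 1.31 ± 0.12, Nlrc5, a transactivator of class I genes, by 1.66 ± 0.23, and the transcription factor Irf1 by 1.09 ± 0.15 (edgeR adjusted p 0.000152 to 0.000908). The cytokine transcript Ifng itself had counts of 1, 4 and 4 in control and 1, 3 and 1 with Wnt1 and was not tested. Of 9 class I loading genes, 6 rose and 0 fell, against the same shares of all genes tested, with a median of 0.77. B2m, the light chain of class I molecules, rose by 1.61 ± 0.12, Tap1 by 1.09 ± 0.18, Tap2 by 0.95 ± 0.15 and Tapbpl by 0.70 ± 0.13 (edgeR adjusted p 7.82e-05 to 0.00333).

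Markers of leukocytes moved with these genes. Of 22 leukocyte markers, 21 were higher, against 22.4% of all genes tested. Their median log2 fold change was 2.49, against 0.052 for all genes tested. Their summed level was 216 to 250 CPM in control and 1450 to 1690 CPM in Wnt1 libraries. Lyz2 (4.30 ± 0.17), Itgam (4.69 ± 0.24), Tyrobp (2.81 ± 0.15) and Cd53 (2.76 ± 0.15) had the smallest p. Of the B-cell genes on the list, Cd79b rose by 0.95 ± 0.27 (edgeR adjusted p 0.0237) and Cd79a, under 1 CPM in every library, was not called. Of 12 proximal tubule markers, 11 were lower, with a median of -1.44, and 5 of 6 markers of other kidney cells were lower, with a median of -0.93. The share called lower was 18.7% over all genes tested. In whole tissue, fewer cells of a type and less RNA per cell cannot be told apart, nor can more leukocytes and a higher level in resident cells. The part of these markers in the rise of the inducible subunits was not tested.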

How the data were processed

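The submitters' processing notes list RSEM, HISAT2, Bowtie2 2.2.8, fastp 0.18.0 and StringTie 1.3.1, and the mm10 build. Tool roles, annotation release and strand setting were not given in the sources used here. For each gene and library the authors deposited an expected count (reads as estimated per gene) and an FPKM value, scaled by length and library total. Expected counts, 9.02% of them not whole within 1e-06, were rounded.

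Genes passing filterByExpr (14432 of 22183) were tested in R 4.3.3 with edgeR 4.0.16: TMM factors, the robust quasi-likelihood test (two-sided), p-values adjusted by Benjamini-Hochberg over all tested genes, and calls at an adjusted p under 0.05. Each standard error was derived from the coefficient and its F statistic. Pair ratios had 0.5 added to counts. The test was checked on simulated data. Depth, 23585040 to 27218091 counts a library, left 3 members with too few reads to pass this filter.

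Alternatives were DESeq2 1.42.0, other scaling factors and filters, limma 3.58.1 on log2(FPKM + 1) and log2(FPKM + 0.1), voom with quality weights, leaving out each library and both numbered 3, and, chosen after seeing the data, a covariate for those 2. Values per library are given for catalytic subunits, activators, the inhibitor and, in each other role, the called gene with the largest change each way, or the gene with the smallest p where none was called. From each list of other genes, up to 4 called ones with the smallest p were named; some genes and a promoter motif are not reported here. Psmc6, Pomp, Nfe2l1, Ifng, Cd79a and Cd79b were added after their values were seen. Members and lists were chosen with earlier results of these data known. Positions and GC content come from GENCODE M21, promoters from RefSeq.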

Additional observations from a re-analysis of the deposited data

How the results depend on the processing

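Psmb8, Psmb9, Psmb10 and Psme2 were called under all 17 alternatives run, and each pair ratio moved by less than the spread between replicates under all of its own. The number of proteasome genes called higher was 5 of 48, against 22.4% of all genes tested. Each percentage in parentheses below is the share of all genes tested under that setting. With library totals the number became 24 (44%), with limma on either FPKM pseudocount 23 (41.1% and 41%) and with voom 8 (32%). It was 9 without both libraries numbered 3 (32%) and 10 with a covariate for them (33.6%), which was chosen after seeing the data. Without single libraries it lay between 4 and 7 (18.4% to 28.5%). The number called lower was 2 (18.7%). It became 0 with upper-quartile factors (15.1%), library totals (8.92%) and either FPKM pseudocount (9.89% and 9.86%). It was 1 with no filter (13.9%), 8 with voom (30.7%), and 7 both without the libraries numbered 3 (30.4%) and with the covariate (29.6%). Without single libraries the number called lower lay between 0 and 6 (12.2% to 27.2%). The cause was not tested. Over 19 named genes and 323 comparisons with an alternative, 237 kept direction and side of the threshold, 20 lost the call, 35 gained it and 31 turned in sign; none of the 31 was called under the alternative, and all but Psmg1 were uncalled to begin with. With library totals, log2(FPKM + 1) and log2(FPKM + 0.1), in this order, log2 fold changes were 0.30, 0.28 and 0.29 for Psmb6, 0.23, 0.22 and 0.22 for Psmb7, 0.24, 0.23 and 0.23 for Psmb5, 0.27, 0.26 and 0.26 for Psme3, 0.19, 0.10 and 0.10 for Psme4, 0.10, 0.07 and 0.07 for Psmf1, 0.18 each time for Psmc1, and 0.22, 0.21 and 0.21 for Psmd4. Psmg1 was at 0.00 with library totals. Without single libraries Psmb6 ran from -0.30 to 0.05, Psmb5 from -0.35 to 0.02, Psme4 from -0.43 to 0.04 and Psmb2 from -0.01 to 0.28. No paired analysis was possible because replicate numbers follow the order of the records and the titles of both groups share only 1 number. Psma8, Psmb11 and Psme2b had too few counts to pass the filter of the analysis reported. Psme2b entered the one without both libraries numbered 3 and was called there, at 1.85 with an edgeR adjusted p of 0.0324. It also entered those without control replicate 1, 2 or 3, at 3.12, 1.93 and 1.47, and was not called in any of them.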
